A study of Mus musculus with 4 samples.

Results

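The 7 genes described here encode core proteins of mitochondrial fusion and fission: Mfn1, Mfn2, Opa1, Oma1, Dnm1l, Fis1 and Mff. They were chosen by name, each read at its brightest probe set with this gene symbol alone, and all 7 were among the 15102 genes tested. The mice were 8 male C57Bl/6 animals, 22 weeks old at the end, that had eaten a high fat diet since 8 weeks of age. After 4 weeks of the diet, 1 tibialis cranialis muscle (front of the lower leg) received AAV8 ProMyo and the muscle of the opposite leg saline, and both were taken 10 weeks later. AAV8 is an adeno-associated virus that carries genes into muscle fibres, and ProMyo is the myostatin propeptide, which holds the growth inhibitor myostatin inactive. The groups were ProMyo muscle (2 arrays) and saline muscle (2 arrays), each array a mixture of RNA from 4 animals, numbered 1-4 or 5-8 in both groups. Both legs of a mouse shared diet and circulation, the saline legs received no empty vector, and the promoter of the transgene is not given in the sources used here.

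Mitochondria of muscle fibres join and divide continually, and the balance of both sets the shape of their network. Mitofusins tie outer membranes together and OPA1 joins inner membranes, while the dynamin-like GTPase DRP1, encoded by Dnm1l, is drawn to the outer membrane by adaptors and constricts it. In muscle this balance bears on respiration, on the removal of damaged mitochondria and on fibre size.

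None of the 7 genes passed the test for a difference between ProMyo and saline muscle. Over all 15102 genes 0 had an adjusted p under 0.05 (limma, percent called 0), and 874, or 5.79%, had an unadjusted p under 0.05, none of them a fusion or fission gene. With the pools as a block, limma called 0 genes and left 6.88% at an unadjusted p under 0.05, again with 0 of the 7. The estimates of 4 genes, Dnm1l, Fis1, Oma1 and Opa1, lay above 0 in both pools of animals, where 29.0% of all genes did. The estimate of 1 gene, Mfn2, lay below 0 in both pools, where 24.0% of all genes did, and Mfn1 and Mff had opposite signs in the pools, like 42.6% of all genes. The median difference of the 7 genes was 0.06 on the log2 scale, against 0.01 over all genes tested. No member differed by 1.5-fold in both pools, a size that 1.03% of all genes reached upward and 0.563% downward. The lowest limit among the 95% intervals of the members was 0.702-fold, at Mfn2, and the highest 1.67-fold, at Dnm1l. At the brightest probe sets and on the deposited scale, a 2-fold difference of any member thus lay outside its interval. These intervals rest on 2 arrays per group and are not adjusted for the 7 genes.

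Promoters of 4 members are shown to let their sequence be set beside the values that follow: Dnm1l and Fis1, with the highest differences, Mfn2, with the lowest, and Opa1, the member with a match to the motif of nuclear respiratory factor 1. Each runs from 250 bases before to 50 after the start of transcription (RefSeq, build GRCm38.p6), and capitals mark matches to the NRF-1 or NRF-2 motif. Where a gene had several starts the most upstream one is printed.
Dnm1l, chr16:16358982-16359281, minus strand: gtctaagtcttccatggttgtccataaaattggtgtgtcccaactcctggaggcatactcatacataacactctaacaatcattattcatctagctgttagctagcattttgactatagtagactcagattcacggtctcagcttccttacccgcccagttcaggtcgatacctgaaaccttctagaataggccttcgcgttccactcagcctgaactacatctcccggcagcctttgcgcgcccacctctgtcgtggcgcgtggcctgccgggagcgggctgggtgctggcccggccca
Fis1, chr5:136953025-136953324, plus strand: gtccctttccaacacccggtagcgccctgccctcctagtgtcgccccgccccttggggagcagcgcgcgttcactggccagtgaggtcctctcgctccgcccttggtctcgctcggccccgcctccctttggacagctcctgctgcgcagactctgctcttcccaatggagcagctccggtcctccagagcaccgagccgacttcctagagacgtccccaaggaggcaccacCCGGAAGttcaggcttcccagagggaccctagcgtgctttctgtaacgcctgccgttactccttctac
Mfn2, chr4:147904860-147905159, minus strand: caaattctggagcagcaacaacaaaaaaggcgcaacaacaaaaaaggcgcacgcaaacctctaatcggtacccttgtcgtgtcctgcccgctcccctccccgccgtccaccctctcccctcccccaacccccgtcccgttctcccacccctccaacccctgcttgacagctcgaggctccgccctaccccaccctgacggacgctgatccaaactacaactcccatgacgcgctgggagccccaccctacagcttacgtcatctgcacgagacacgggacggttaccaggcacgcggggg
Opa1, chr16:29579084-29579383, plus strand: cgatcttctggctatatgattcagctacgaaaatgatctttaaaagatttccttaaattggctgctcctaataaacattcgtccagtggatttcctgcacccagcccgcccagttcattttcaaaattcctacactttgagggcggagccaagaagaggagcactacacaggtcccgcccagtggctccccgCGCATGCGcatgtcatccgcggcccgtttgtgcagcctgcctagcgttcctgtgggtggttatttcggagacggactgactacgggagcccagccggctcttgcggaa
All 7 genes had an entry, with 12 promoters in all, of which the 3 of Mfn2 overlap each other, as do the 2 of Mff. The core CGCATGCG of the NRF-1 motif, searched on both strands like all others, was found in 1 of the 12, that of Opa1, at position -58 from the start of transcription, and in 1.87% of 32851 promoters of the same length. The NRF-2 motif CCGGAAG, which GABP and other ETS factors share, was in 4 of the 12, at Mfn1, Fis1 (both starts) and the downstream start of Dnm1l, and in 8.86% of all. The YY1 motif AANATGGC was in 3 of the 12, at Mfn1 and both starts of Mff, and in 6.05% of all. The match of Mff is the same site, read in its 2 overlapping promoters. The GC box GGGCGG was in 10 of the 12 and in 35.7% of all, and it is left in lower case. No match was found for AAGGTCA of the estrogen-related receptors (4.72% of all promoters), TGACGTCA of CREB (1.79%), the E-box CACGTG (7.15%) or the Smad motif GTCTAGAC (0.213%). The motifs do not contain each other, and the printed promoters of Dnm1l and Mfn2 hold none of the capitalised matches.

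The estimates of the 3 fusion genes lay between -0.12 and 0.06 on the log2 scale. Mfn1 and Mfn2 encode the 2 mitofusins, GTPases of the outer membrane that tether neighbouring mitochondria. Mfn1 (chromosome 3, 32529443 to 32579225) read 8.38 in ProMyo 1-4 and 8.36 in ProMyo 5-8, against 8.28 in saline 1-4 and 8.43 in saline 5-8. Both ProMyo values lay between both saline values. The difference was 0.02 ± 0.16 (log2 ± SE, n = 2 pools per group, limma adjusted p = 0.99), with a 95% interval of -0.39 to 0.42. Its 2 other probe sets averaged 7.97 and 7.58 in ProMyo muscle against 7.95 and 7.70 in saline muscle, and their differences were 0.02 and -0.12, with signs that changed between the pools at each.

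Mfn2 (chromosome 4, 147873586 to 147904909) read 8.30 and 8.24 in ProMyo pools 1-4 and 5-8, against 8.36 and 8.42 in the saline pools. The groups did not overlap, with ProMyo muscle below saline muscle, as for 15.7% of all genes. The difference was -0.12 ± 0.15 (n = 2 pools per group, limma adjusted p = 0.92), or -0.06 in pool 1-4 and -0.17 in pool 5-8. This is small on the scale of the array, since 62.3% of genes had a larger absolute difference. A second probe set of Mfn2 read within the background controls on every array and gave no usable level.

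Opa1 (chromosome 16, 29579281 to 29663127), the dynamin-related GTPase of the inner membrane that also holds cristae in shape, read 9.16 and 9.14 in the ProMyo pools, against 9.11 and 9.07 in the saline pools. The arrays of the groups did not overlap, as for 17.8% of all genes in this direction, but they lay within 0.09 log2 units of each other. The difference was 0.06 ± 0.15 (n = 2 pools per group, limma adjusted p = 0.97). The 2 other probe sets of Opa1 were far from each other. At the next brightest, ProMyo muscle read 4.96 and 4.72 and saline muscle 4.30 and 4.64, a difference of 0.37 with 0.66 in pool 1-4 and 0.08 in pool 5-8. At the dimmest, ProMyo muscle read 0.86 and 0.50 and saline muscle 1.41 and 0.98, a difference of -0.52, with 2 of these 4 values at or below the background controls. Which transcripts of Opa1 each probe set reads was not analysed here.

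Oma1 encodes the inner membrane protease that cuts OPA1 under stress and so halts fusion. Oma1 (chromosome 4, 103311875 to 103371869) read 5.29 and 5.44 in ProMyo pools 1-4 and 5-8, against 5.21 and 5.10 in the saline pools. Both ProMyo arrays were above both saline arrays, as for 17.8% of all genes, with most of the gap in pool 5-8. The difference was 0.21 ± 0.16 (n = 2 pools per group, limma adjusted p = 0.86), or 0.08 in pool 1-4 and 0.34 in pool 5-8. It has 1 probe set, so no second reading stands beside it.

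**Figure D1:**
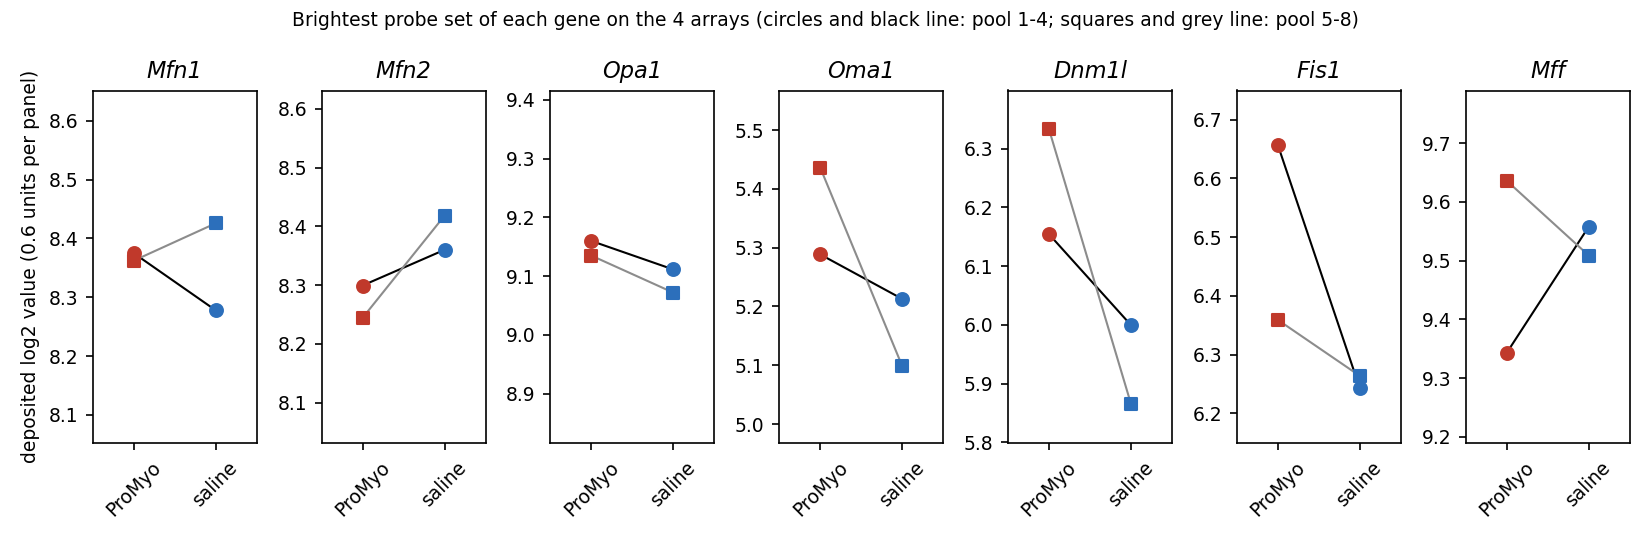
Deposited log2 value of the brightest probe set of each gene in ProMyo muscle (left, red) and saline muscle (right, blue), with a line joining the 2 legs of the same pool of animals and 0.6 log2 units on every vertical axis. The lines of Opa1, Oma1, Dnm1l and Fis1 run down to saline in both pools, those of Mfn2 run up in both, and at Mfn1 and Mff 1 line runs up and 1 down.

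The 2 highest estimates stood at the fission genes Dnm1l and Fis1. Dnm1l (chromosome 16, 16312228 to 16359038), the gene of the GTPase that divides mitochondria, read 6.15 in ProMyo 1-4 and 6.33 in ProMyo 5-8, against 6.00 in saline 1-4 and 5.87 in saline 5-8. Both ProMyo arrays were above both saline arrays, as for 17.8% of all genes. The difference was 0.31 ± 0.17 (n = 2 pools per group), or 1.24-fold, with a 95% interval from 0.924-fold to 1.67-fold, and it missed the threshold (limma adjusted p = 0.83, unadjusted p = 0.12). It was 0.15 in pool 1-4 and 0.47 in pool 5-8, and 23.8% of all genes had a larger absolute difference. A second probe set of Dnm1l read 4.63 and 5.05 in ProMyo muscle against 4.60 and 4.39 in saline muscle. Its difference of 0.34 was 0.66 in pool 5-8 and 0.02 in pool 1-4. The 2 remaining probe sets were within the background controls on all 4 arrays.

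Fis1 (chromosome 5, 136953275 to 136966234), which encodes a small outer membrane protein counted among the fission adaptors, read 6.66 in ProMyo 1-4 and 6.36 in ProMyo 5-8, against 6.24 in saline 1-4 and 6.26 in saline 5-8. The ProMyo 1-4 array stood apart from the other 3. The groups did not overlap, as for 17.8% of all genes in this direction. The difference was 0.25 ± 0.18 (n = 2 pools per group, limma adjusted p = 0.86), with 0.41 in pool 1-4 and 0.10 in pool 5-8. Without the ProMyo 1-4 array it was 0.11. The other probe set read 3.99 and 3.63 in ProMyo muscle against 3.89 and 3.54 in saline muscle, a difference of 0.09 in which both pools lay close, at 0.09 each.

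Mff (chromosome 1, 82724890 to 82752390), the tail-anchored receptor that recruits DRP1, read 9.34 in ProMyo 1-4 and 9.64 in ProMyo 5-8, against 9.56 in saline 1-4 and 9.51 in saline 5-8. The ProMyo arrays were the lowest and the highest of the 4, with both saline arrays between them. The difference was -0.04 ± 0.18 (n = 2 pools per group, limma adjusted p = 0.98), made of -0.21 in pool 1-4 and 0.13 in pool 5-8. By the suffix of its name this probe set holds probes that may also match other transcripts. The 2 other probe sets above background gave the same signs in each pool, -0.10 and 0.18 at one and -0.27 and 0.15 at the other. The latter has the same suffix and may read the same other transcripts. The second probe set of Fis1 also has this suffix, and that of the brightest Mfn1 probe set likewise marks probes that may match several transcripts. The remaining probe set of Mff was within the background controls.

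**Figure D2:**
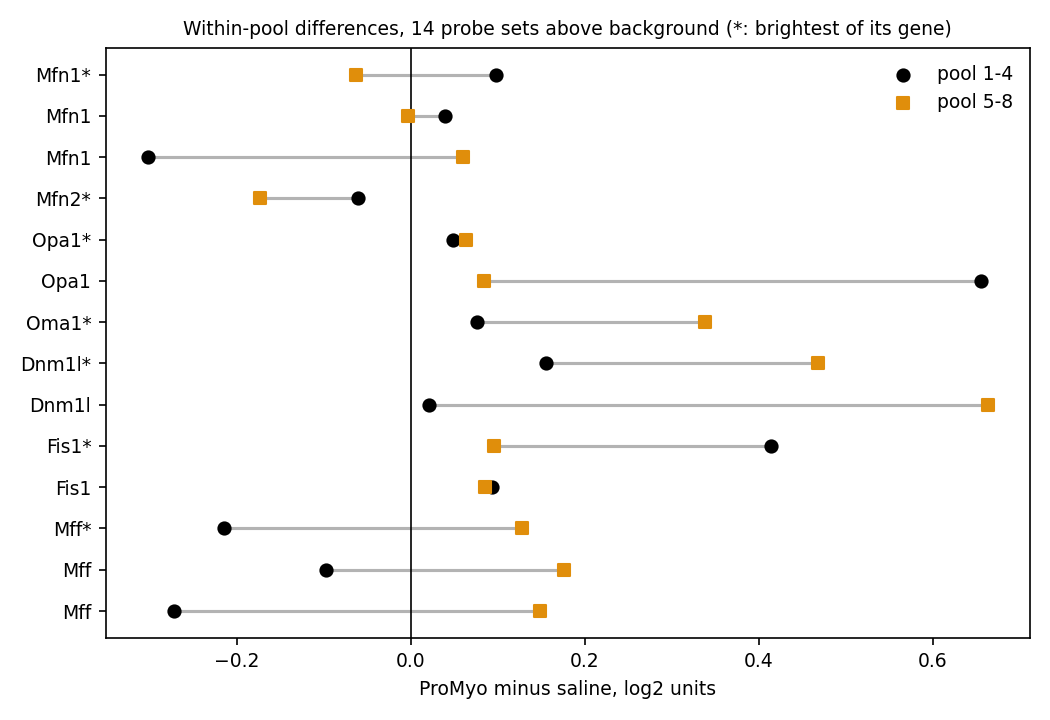
Difference between ProMyo and saline muscle (log2 units) in pool 1-4 (black circles) and pool 5-8 (orange squares) for each of the 14 probe sets of the 7 genes that were above the background controls on all 4 arrays. Points of Fis1, Dnm1l, Oma1 and Opa1 lie at or right of 0 in both pools, and the 3 probe sets of Mff each lie left of 0 in pool 1-4 and right of 0 in pool 5-8.

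Over the 19 probe sets of the 7 genes, 14 were above the background controls on every array. Of these 14, 7 had a positive difference in both pools, 1 a negative one in both and 6 opposite signs. Of all 22071 probe sets above background on every array, 31.7% had a positive difference in both pools, 22.8% a negative one and 42.0% opposite signs. The 7 higher ones were all those of Opa1, Oma1, Dnm1l and Fis1, which had 2, 1, 2 and 2 such probe sets. Probe sets of 1 gene share its transcripts, so they are repeated readings of 4 genes. The size differed between readings of a gene, from 0.06 to 0.37 at Opa1 and from 0.09 to 0.25 at Fis1. At Dnm1l the means were close, with 0.31 and 0.34, but the pools were not. There the 2 readings gave 0.15 and 0.02 in pool 1-4, and 0.47 and 0.66 in pool 5-8.

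The pools differed in which gene stood out. In pool 1-4 the largest difference of a brightest probe set was that of Fis1, at 0.41, followed by Mff at -0.21 and Dnm1l at 0.15. In pool 5-8 it was that of Dnm1l, at 0.47, followed by Oma1 at 0.34 and Mfn2 at -0.17. Between pools 5-8 and 1-4 within ProMyo muscle, Fis1 differed by -0.30 and Mff by 0.29. Within saline muscle the same 2 genes differed by 0.02 and -0.05, and the widest gap was that of Mfn1, at 0.15. With 1 array per leg and pool, a difference between the pools could not be tested.

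**Figure D3:**
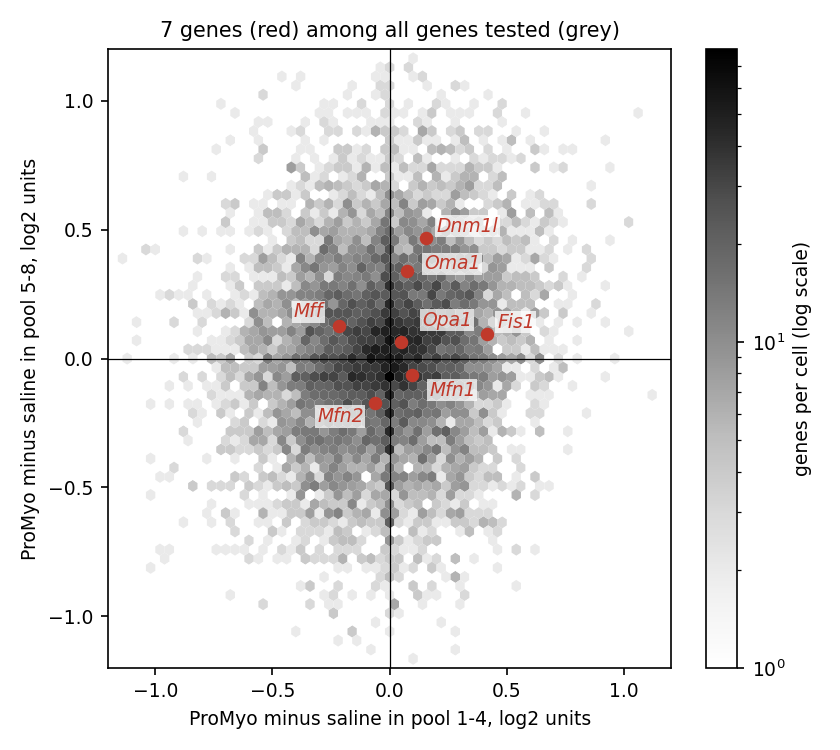
Difference between ProMyo and saline muscle in pool 1-4 (horizontal axis) and pool 5-8 (vertical axis), in log2 units, for all 15102 genes tested (grey cells, darker with more genes; genes beyond 1.2 in either pool are not drawn) and the 7 fusion and fission genes (red points). The members lie within the dense centre, with Dnm1l at 0.15 and 0.47 and Fis1 at 0.41 and 0.10.

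Placed among all genes by absolute difference, Dnm1l stood at the 76.2 percentile, Fis1 at 68.0, Oma1 at 59.4, Mfn2 at 37.7, Opa1 at 19.2, Mff at 15.2 and Mfn1 at 6.06. The spread between pools of a group was small for these genes, with a median pooled SD of 0.093 log2 units against 0.191 over all genes. All 7 members were above background on every array, while 3896 of the 15102 genes were not. Percentiles and SDs were not compared among genes of like brightness. The limma standard errors of the members, 0.15 to 0.18, draw on the spread of all genes and are wider than these SDs alone would give.

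**Figure D4:**
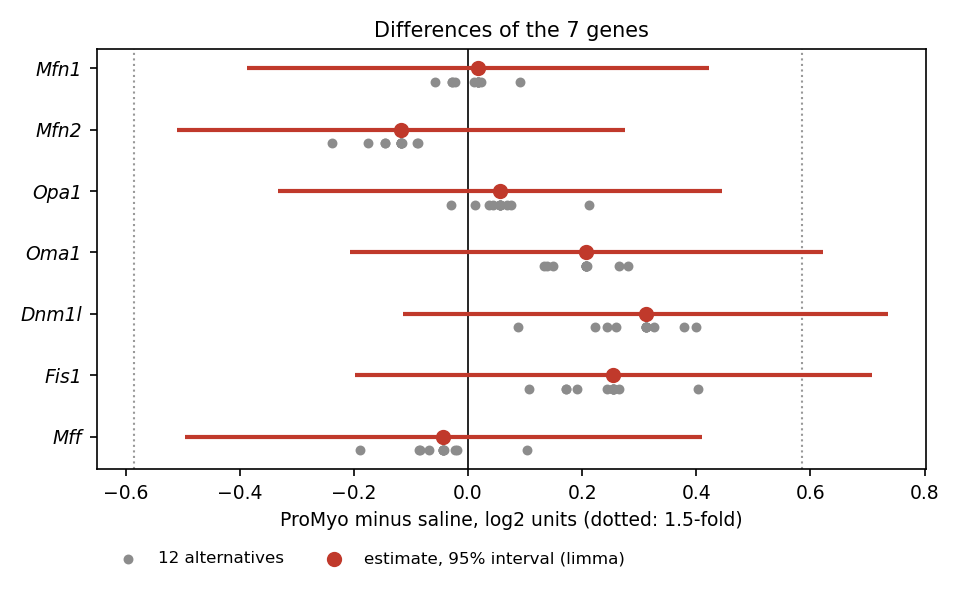
Difference between ProMyo and saline muscle (log2 units) with its 95% interval from limma (red) for each gene, and below it the estimates under 12 alternatives (grey). Every interval crosses 0, and those of Dnm1l, Fis1 and Oma1 are the ones that reach past 1.5-fold (dotted lines).

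Genes that act beside the 7 were read in lists for the same pathway. Beside the counts of these lists, 29.0% of all genes tested were higher in both pools and 24.0% lower. No gene of these lists passed limma over all genes, and none differed by 1.5-fold in both pools. Of the other fusion factors and inner membrane proteases, 10 of 12 were tested, 5 were higher in both pools and 1 lower, with a median of 0.10. Slc25a46, an outer membrane protein tied to fusion and lipid transfer, read 8.26 and 8.30 in ProMyo muscle against 8.02 and 7.88 in saline muscle. Its difference was 0.34 ± 0.16 (limma adjusted p = 0.83), and a second probe set gave 0.47 with both pools alike in sign. Phb2, a prohibitin of the inner membrane that steadies OPA1, differed by 0.30 ± 0.18 (limma adjusted p = 0.84), though 2 further bright probe sets read -0.04 and 0.06 and a dim one -0.43. Miga1, mitoguardin 1, differed by -0.65 ± 0.20 (limma adjusted p = 0.82) at a dim probe set that read 0.92 and 0.96 in ProMyo muscle, against 1.79 and 1.39 in saline muscle.

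Of the other fission factors, 19 of 21 were tested, with 4 higher in both pools, 4 lower in both and a median of 0.02. Inf2, a formin that builds actin where mitochondria meet the endoplasmic reticulum before division, read 3.79 and 3.82 in ProMyo muscle against 4.58 and 4.15 in saline muscle. The difference was -0.56 ± 0.20 (limma adjusted p = 0.82, unadjusted p = 0.038), and a second, dimmer probe set read -0.29 with opposite signs in the pools. Spire1, another actin nucleator of this step, differed by 0.57 ± 0.37 (limma adjusted p = 0.84), with gaps of 0.69 and 0.84 between the pools of ProMyo and of saline muscle. Its other probe sets above background on all arrays read 0.85 and -0.29, the second negative in both pools. Marchf5, a ubiquitin ligase of the outer membrane that acts on DRP1 and mitofusins, differed by 0.34 ± 0.22 (limma adjusted p = 0.85). It read 6.96 on both ProMyo arrays against 6.87 in saline 1-4 and 6.37 in saline 5-8. Its other probe set above background on all arrays gave 0.16, with -0.07 in pool 1-4 and 0.40 in pool 5-8.

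The cristae organising system, whose complex shapes the folds of the inner membrane, had 12 of 12 genes tested. Of these 8 were higher in both pools and 1 lower, with a median of 0.05. Apool stood at 0.40 ± 0.16, Mtx2 at 0.30 ± 0.16 and Micos13 at 0.25 ± 0.17 (limma adjusted p between 0.82 and 0.85). Apool read 6.08 and 6.10 in ProMyo muscle against 5.63 and 5.76 in saline muscle, without overlap, as for 17.8% of all genes.

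Mitophagy genes, which mark and remove damaged mitochondria, had 17 of 20 tested, with 3 higher in both pools, 6 lower and a median of -0.03. Usp15, a deubiquitinase that opposes mitophagy, differed by 0.41 ± 0.21 (limma adjusted p = 0.83), but 4 other bright probe sets read between -0.49 and 0.27. Fkbp8, a mitophagy receptor of the outer membrane, differed by -0.33 ± 0.22, and Tbk1, a kinase of mitophagy adaptors, by -0.23 ± 0.21 with 0.22 at its other probe set. Genes of mitochondrial transport had 11 of 11 tested, 3 higher in both pools, 2 lower and a median of 0.01. Rhot1, the GTPase that anchors mitochondria to motors, differed by 0.30 ± 0.16 at its brightest probe set and by -0.46 at another bright one, while Kif5b, a kinesin heavy chain, stood at 0.24 ± 0.18 with -0.23 to 0.53 at 4 other probe sets, and Myo19, a mitochondrial myosin, at -0.16 ± 0.17 near background.

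Markers of mitochondrial content had 17 of 17 tested, 10 higher in both pools, 3 lower and a median of 0.04. The highest differences were those of the matrix chaperones Hspa9, at 0.36 ± 0.16, and Hspd1, at 0.34 ± 0.16. Uqcrc1, a subunit of complex III, followed at 0.25 ± 0.17 (limma adjusted p of the 3 between 0.82 and 0.85). A second bright probe set of Hspa9 gave 0.16. The 3 markers lower in both pools were Cs at -0.16, Tomm22 at -0.08 and Sdha at -0.06. No test set these lists against each other or against the 7 members.

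**Figure D5:**
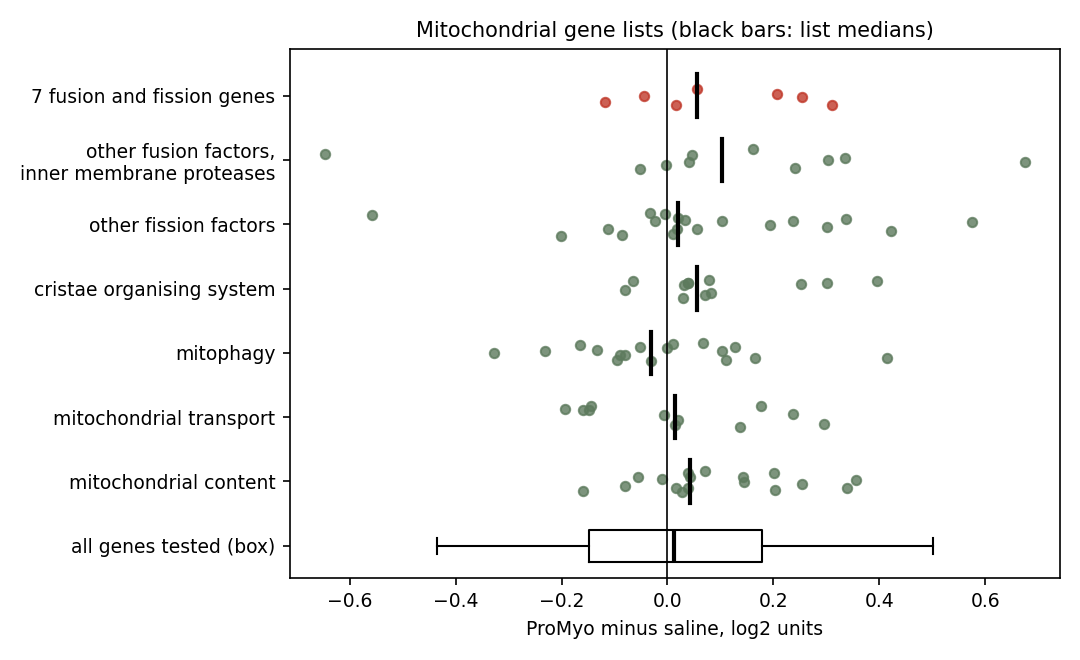
Difference between ProMyo and saline muscle (log2 units) for each gene of the 7 fusion and fission genes (red), of 6 other mitochondrial lists (green, black bars at the medians) and over all genes tested (box from the 25th to the 75th percentile, whiskers at the 5th and 95th). The list medians lie between -0.03 and 0.10, inside the box of all genes.

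Whole muscle holds several cell types, and fewer cells of a type cannot be told apart from less RNA per cell. Muscle fibre markers averaged 11.3 and 11.2 in ProMyo muscle against 11.2 and 11.1 in saline muscle, with a median difference of 0.13. Of the 12, 10 were higher in both pools, among them Acta1, Ckm and Mylpf. Ttn was lower in both, at -0.17, and Atp2a1 had opposite signs in the pools, at -0.07. The macrophage markers averaged 3.85 and 3.70 against 4.13 and 3.91 in saline muscle, with 4 of 8 lower in both pools and a median of -0.31. Fibroblast markers averaged 6.19 and 6.29 against 6.49 and 6.51 in saline muscle, with 6 of 8 lower in both pools and a median of -0.15. The largest negative differences were those of Pi16 at -0.96, Col1a2 at -0.78 and Col1a1 at -0.68 (limma adjusted p = 0.82 for each). Pi16 and Col1a2 were 1.5-fold lower in both pools, as were 0.563% of all genes. A second bright probe set gave -0.88 at Col1a1 and -0.35 at Col1a2. Lum went the other way, at 0.63 and higher in both pools, and Dcn had opposite signs. Over all genes tested 29.0% were higher in both pools and 24.0% lower. The medians were 0.06 for 7 endothelial, -0.46 for 3 adipocyte and -0.21 for 3 Schwann cell markers, the 2 small lists being dim, with Lep and Mag within the background controls on at least 1 array. For Gapdh the signal of 3' probes over 5' probes, a reading of RNA integrity, was 0.58 and 0.74 log2 units on the ProMyo arrays against 0.90 and 0.81 on the saline arrays. The saline 5-8 array had hybridization controls at 11.1 against 10.1 to 10.2 on the others. Its upper quartile over all probe sets was 2.97 against 3.15 to 3.20, and its lower quartile 0.51 against 0.40 to 0.44. Over all genes tested the median difference was 0 in pool 1-4 and 0.04 in pool 5-8. The part of fibre content, RNA quality or this array in the differences of the 7 genes was not tested. Without the saline 5-8 array, 5 members had both ProMyo arrays above the saline 1-4 array (29.5% of all genes) and 1 had both below (36.9%), Mfn1 being the added one.

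For each member the gene with the most alike pattern was sought over the 4 arrays, as the smallest root mean square distance between values centred on each gene's mean. These were Pdpk1 for Mfn1 (distance 0.003 log2 units), Atp1b1 for Mfn2 (0.009), Ppm1b for Opa1 (0.005) and Vps50 for Oma1 (0.012). For the fission genes they were Ppp4r1 for Dnm1l (0.009), Cep152 for Fis1 (0.010) and Lsp1 for Mff (0.004). Opa1, Mfn1 and Mfn2 varied by less than 0.1 log2 units around their own means (root mean square 0.032, 0.053 and 0.065), so genes of even level lie near them whatever their pattern, and no likeness of function is read from these names.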

How the data were processed

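RNA of tibialis cranialis muscle was measured on 4 Affymetrix mouse arrays, each a mixture of RNA from 4 animals. The deposited values are log2 expression per probe set, and the submitters' processing notes name RMA and Affymetrix Expression Console as the authors' tools, without versions. The log base is not stated and was read as log2 from the range of -0.45 to 13.2. Array medians of 1.06 to 1.11 are low for RMA, so folds hold on the deposited scale.

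Of 45101 probe sets, 34945 had 1 gene symbol, 932 several and 9224 none (64 array controls included). Symbols came from the platform annotation, and 34741 matched RefSeq (GRCm38.p6) by gene identifier. Each gene was read at its brightest probe set by the mean of the 4 arrays, above the 25th percentile (0.45). Background was the highest of 27 Bacillus control probe sets on each array, 0.57 to 0.99.

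The groups were compared in limma 3.58.1 (R 4.3.3, lmFit and eBayes, 2 residual degrees of freedom) with Benjamini-Hochberg adjustment over 15102 genes, threshold 0.05. Arrays have no read depth, and 2 per group limit the precision: the median standard error was 0.19, and an exact permutation test of 2 against 2 could not go below p = 0.33. Each array pools its animals, so the p-values measure the spread between pools. Both legs came from the same mice, so the pools pair by design; same-numbered pools deviated from their group means with r = 0.16 across genes.

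The members, lists and tests were chosen with earlier results of these data known. Named genes were the 7 members with all probe sets, the 3 genes with the smallest p in each mitochondrial list, and the gene nearest in pattern to each member. The gene test was tested on simulated data. Alternatives were the pool block, other filters, a variance trend, median-centred and quantile-normalized arrays, other ways to combine probe sets, and leaving out each array. List genes without a probe set that passed were not analysed here.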

Additional observations from a re-analysis of the deposited data

How the results depend on the processing

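The gene count stayed at 0 under every alternative but one: with every probe set in place of genes limma called 1 of 33778, which was none of the 7 genes. With the pools as a replicate block (paired legs) the count was 0, the median of the 7 genes 0.06 and the members higher and lower in both pools 4 and 1, and no call changed. Of 84 single estimates, 78 kept their direction and 0 passed the threshold. Reversed were Mfn1, at -0.023 with quantile normalization and -0.029 both with the mean of its probe sets and with the mean of those above background (added after seeing the data), and Opa1, at -0.030 with the mean of its probe sets. With 1 array left out Mfn1 ranged from -0.057 (without saline 1-4) to 0.091, and Mff from -0.19 to 0.10 (without ProMyo 1-4). The median of the 7 was 0.012 with quantile normalization, where that of all genes moved too, from 0.013 as deposited to -0.020. It was -0.029 with the mean of probe sets, 0.018 over 17 single probe sets and 0.17 with the mean above background. With 1 array left out it lay between 0.068 and 0.10. The mean of probe sets gave 2 members higher in both pools and 3 lower (28.1% and 25.9% of all genes). There Dnm1l fell to 0.088 with opposite signs in the pools, and Mff and Mfn1 were lower in both beside Mfn2. The single probe sets gave 7 and 2 (29.1% and 23.4% of all probe sets), and the mean above background 4 and 2 (31.2% and 23.8%). With 1 array left out, the lone array of its group was set against both arrays of the other group. By this count 4 to 5 members were higher (29.5% to 42.7% of all genes) and 1 to 2 lower (27.3% to 36.9%). These counts are not like those in both pools, since 1 pool has lost its pair. Quantile normalization left 3 higher (3781 of all 15102 genes), without Opa1. The mean of all probe sets includes those within background. Dim probe sets limit what can be said of Mfn2, with 1 usable reading, and Oma1 has 1 probe set.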
